A study of Mus musculus with 12 samples.

Results

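The immunoglobulin genes encode the heavy and light chains of antibodies, and Jchain encodes the small protein that joins antibody units into polymeric IgA and IgM. They were taken as every gene with an immunoglobulin biotype in the GENCODE mouse annotation, release 21 (GRCm38), or with a symbol that opens with the name of a heavy or light chain gene class, plus Jchain. Of 433 such annotated genes, 120 were measured among the 16080 genes of the files. They comprised 62 heavy chain genes (5 constant and 57 variable), 57 light chain genes (Igkc, 52 kappa variable genes, Iglc1, Iglc2, Iglv1 and Iglv2) and Jchain. The remaining annotated genes, among them the constant genes Ighd, Ighe, Ighg3, Iglc3 and Iglc4 and all 164 annotated pseudogenes, were not analysed here. Ighmbp2, a helicase gene on chromosome 19, was taken by the first letters of its symbol alone and was kept apart.

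The sequenced RNA came from AEC2, the surfactant-making type 2 epithelial cells of the lung alveolus, and the mice were female Bl6 animals of postnatal day 56 (P56). The 3 groups of 4 libraries differed in Sftpc, which encodes surfactant protein C (SP-C): SP-C WT, SP-C C185Gneo, described by the submitters as hypomorphic, and SP-C C185G, the induced mutant. Every group received tamoxifen at 200 mg/kg by intraperitoneal injection on 2 days, with isolation on day 7, so tamoxifen is common to mutant and control libraries. The sources used here do not give the recombinase, its promoter or the number of animals per library, so p-values measure the spread between these libraries, which may be in part technical. The groups follow the genotype field, and the titles go against it: the C185Gneo libraries are titled C185G, the name of the other mutant group, and the titles of the C185G libraries carry a further code. Every value given for C185Gneo or C185G rests on the genotype field. Lungs were digested with Dispase and DNase, plastic dishes held back mesenchymal cells, and beads of a mouse T cell kit and a dendritic cell kit depleted CD45+ cells.

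Antibodies are made by B cells and, in far larger amounts, by the plasma cells they become. Each B cell joins a single variable gene to short D and J segments (heavy chain) or to a J segment (light chain) by DNA recombination, and splicing of the transcript adds the constant part. Class switching later exchanges the IgM constant gene for one of IgG, IgA or IgE while the variable gene is kept. The lung airways hold IgA plasma cells, and polymeric IgA is carried across epithelium by the polymeric immunoglobulin receptor, Pigr. Fcgrt, the neonatal Fc receptor, binds IgG and protects it from breakdown.

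Among the constant genes, those of IgG had the largest fitted differences from C185Gneo, and their first coding bases are shown because the genes are near copies of each other. Ighg2b lies at chr12:113302965-113307933, Ighg2c, the IgG2 gene that Bl6 mice carry in place of Ighg2a, at chr12:113285325-113288932, and Ighg1 at chr12:113325240-113330523, all on the minus strand of GRCm38. The first 90 bases of each GENCODE transcript, 5′ to 3′, are given with the bases that differ from Ighg2b in capitals.
Ighg2b: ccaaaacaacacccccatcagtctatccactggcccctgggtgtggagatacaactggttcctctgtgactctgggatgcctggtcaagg
Ighg2c: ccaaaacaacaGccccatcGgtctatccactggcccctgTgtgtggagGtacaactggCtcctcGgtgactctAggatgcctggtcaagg
Ighg1: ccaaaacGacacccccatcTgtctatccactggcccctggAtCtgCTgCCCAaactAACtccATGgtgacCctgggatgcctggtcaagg
Ighg2c differed from Ighg2b at 7 of these bases (92.2% identity) and Ighg1 at 17 (81.1%). Over the whole exonic sequence, 95.9%, 94.5% and 99.6% of the 50-base windows of Ighg2b, Ighg2c and Ighg1 occurred in no other annotated gene, so the 3 were separable over most of their length.

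The variable genes are shown by the end of their coding sequence, where the segment meets the part of the antibody that recombination makes anew. The last 60 coding bases of some genes that led the variable counts of a library are given 5′ to 3′, with the last in-frame cysteine codon, after which the third complementarity-determining region begins, in capitals.
Ighv9-3: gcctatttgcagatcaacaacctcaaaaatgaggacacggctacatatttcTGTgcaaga
Ighv1-81: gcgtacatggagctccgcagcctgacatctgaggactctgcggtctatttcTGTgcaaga
Ighv14-4: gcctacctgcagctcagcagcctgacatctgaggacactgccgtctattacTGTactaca
Ighv1-75: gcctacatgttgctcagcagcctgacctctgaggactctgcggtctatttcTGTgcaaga
Igkv1-110: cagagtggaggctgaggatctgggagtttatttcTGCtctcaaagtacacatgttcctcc
Igkv1-117: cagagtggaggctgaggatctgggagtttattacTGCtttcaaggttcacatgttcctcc
Igkv8-21: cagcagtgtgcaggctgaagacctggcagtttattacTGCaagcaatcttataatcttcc
The heavy genes lie on chromosome 12 (Ighv9-3 at chr12:114140692-114141122, Ighv1-81 at chr12:115920279-115920712, Ighv14-4 at chr12:114176438-114176867 and Ighv1-75 at chr12:115833950-115834418), and the kappa genes on chromosome 6 (Igkv1-110 at chr6:68270485-68271267, Igkv1-117 at chr6:68121046-68121827 and Igkv8-21 at chr6:70314895-70315472). Of the 50-base windows of Igkv1-110, 50.3% also occurred in Igkv1-117. Over the variable genes, the median share of windows found in no other gene was 77.8% for heavy and 68.3% for kappa genes, 15 of the 120 members were under 50%, and 14 were wholly unique. The sources used here do not say how reads that match several genes were assigned, and somatic mutation adds differences from these germline sequences, so the identity of a single variable gene is uncertain.

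Library depth was 15659512 to 23444287 counts, and 1 count corresponded to 0.0428 to 0.0616 CPM, the usual count measure relative to library size, taken here on the deposited scale, so a member at a few counts is poorly resolved. Every gene in the files has at least 83 counts over the 12 libraries, and a member that reached this through a single group had to differ between groups, so counts over the measured members do not describe all annotated ones. Sftpc was at 7467 ± 194 CPM in WT, at 895 ± 143 in C185Gneo and at 2833 ± 256 in C185G (mean ± SD, n = 4, as for all such values here), and all 11 AEC2 genes of the marker list were measured. Of the 16080 genes, limma called 27.3% higher and 27.8% lower in C185G than in WT, 29.2% higher and 28.7% lower in C185G than in C185Gneo, and 0.249% higher and 0.292% lower in C185Gneo than in WT, at a Benjamini-Hochberg adjusted p under 0.05. With library totals as the scaling, 59.9% of the calls against WT and 58.1% of those against C185Gneo were higher, where the deposited scaling gave 49.6% and 50.5%.

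Immunoglobulin transcripts were present in every library and had their lowest group mean in C185Gneo. The members together took 0.0493% to 0.293% of a library's counts. The heavy chain genes summed to 1674, 479.7, 1118 and 966 CPM in WT libraries 1 to 4, to 375, 285, 355 and 543 in C185Gneo libraries 1 to 4, and to 986, 1705, 865 and 1053 in C185G libraries 1 to 4. All C185G libraries lay above all C185Gneo libraries, while WT library 2 fell within the range of C185Gneo. The group means were 1059 ± 492 CPM in WT, then 389 ± 109 in C185Gneo and 1152 ± 377 in C185G, a ratio of 0.368 for C185Gneo over WT and of 1.09 for C185G over WT. That last ratio ranged from 0.914 without C185G library 2 to 1.35 without WT library 1. No test was applied to these sums. In bulk RNA, fewer cells of a type and less RNA per cell cannot be told apart.

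The light chain genes followed the same order. They summed to 996, 294, 606 and 568 CPM in WT, to 218, 179, 208 and 339 in C185Gneo and to 591, 977, 507 and 571 in C185G, library by library. The highest and lowest WT libraries and the highest C185G library were the same as for the heavy chain. Group means were 616 ± 289, 236 ± 70.7 and 662 ± 213 CPM, with a ratio of 0.383 for C185Gneo over WT and of 1.07 for C185G over WT (0.903 without C185G library 2, 1.35 without WT library 1). The ratio of heavy to light chain counts stayed between 1.59 and 1.84 over the 12 libraries, with means of 1.71 ± 0.0920 in WT, 1.65 ± 0.0668 in C185Gneo and 1.74 ± 0.0761 in C185G.

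Among the heavy chain constant genes, those of IgG differed most between groups. Ighg2b was at 286, 33.8, 308 and 200.0 CPM in WT libraries 1 to 4, at 11.2, 12.4, 7.14 and 12.4 in C185Gneo and at 47.5, 261, 201 and 164 in C185G. The C185Gneo libraries lay close together and below every library of the other groups. Ighg2b rose in C185G against C185Gneo by a log2 change of 3.75 ± 0.72 (SE, adjusted p = 0.00117) and fell in C185Gneo against WT by 3.89 ± 0.72 (adjusted p = 0.0494), while the C185G and WT groups overlapped (log2 change -0.14, adjusted p = 0.888). The call against WT was lost in 14 of 18 alternative fits (adjusted p 0.00384 to 0.206). Of the fits that left out 1 library, the one without WT library 2 kept it and the other 7 lost it.

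Ighg2c, the other IgG2 gene, showed the same pattern. It was at 385, 26.7, 79.0 and 93.2 CPM in WT, at 4.79, 5.45, 2.38 and 7.37 in C185Gneo and at 49.5, 246, 104 and 100.4 in C185G. No C185Gneo library reached the lowest value of WT or C185G. Ighg2c rose in C185G against C185Gneo (log2 change 4.51 ± 0.75, adjusted p = 0.000440) and fell in C185Gneo against WT (log2 change -4.33 ± 0.75, adjusted p = 0.0369). The latter call was lost in 10 of 18 alternative fits (adjusted p 0.00863 to 0.277), and of the fits that left out 1 library only that without WT library 2 kept it. Against WT, C185G gave 0.19 (adjusted p = 0.851).

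Ighg1 had the largest fitted change of the constant genes in both comparisons with C185Gneo. It had 683, 47, 1270 and 712 counts in WT libraries 1 to 4, then 17, 5, 28 and 32 in C185Gneo and 439, 2651, 908 and 1592 in C185G, or means of 39.1 ± 28.0, 1.13 ± 0.751 and 73.4 ± 45.7 CPM. Here too the C185Gneo group did not overlap the others. Ighg1 rose in C185G against C185Gneo (log2 change 6.04 ± 1.03, adjusted p = 0.000524). Its change in C185Gneo against WT, -4.69 ± 1.03, did not pass the test (adjusted p = 0.105), nor did it in 16 of 18 alternative fits (adjusted p up to 0.546). It passed without WT library 2 (adjusted p = 0.00836) and with eBayes without robust (adjusted p = 0.0376).

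Summed, the 3 IgG constant genes stood at 392 ± 269 CPM in WT, at 16.9 ± 4.33 in C185Gneo and at 366 ± 209 in C185G. The ratio of means was 23.2 for WT over C185Gneo and 21.7 for C185G over C185Gneo. The lowest WT library (63.2 CPM, library 2) and the lowest C185G library (120 CPM, library 1) were above the highest C185Gneo library (21.6 CPM).

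Igha, the constant gene of IgA at chr12:113254830-113260236, was the member with the highest CPM and varied far less. It was at 625, 318, 427 and 435 CPM in WT, at 279, 209, 270.1 and 410.4 in C185Gneo and at 659, 698, 349 and 472 in C185G. The groups overlapped in all 3 pairings. Igha rose in C185G against C185Gneo by a log2 change of 0.89 ± 0.28 (adjusted p = 0.0178), a call lost without C185Gneo library 2 (adjusted p = 0.0505) and without C185G library 1 (adjusted p = 0.0529). It did not pass the test in C185G against WT (0.26, adjusted p = 0.451) or in C185Gneo against WT (-0.63, adjusted p = 0.508).

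Ighm, the constant gene of IgM at chr12:113418558-113422730, went the other way in C185G. It was at 3.83, 4.81, 4.01 and 4.44 CPM in WT, at 2.52, 3.11, 3.09 and 4.01 in C185Gneo and at 1.75, 2.51, 2.02 and 2.90 in C185G. Every C185G library was below every WT library, and C185Gneo overlapped both. Ighm fell in C185G against WT by a log2 change of 0.91 ± 0.18 (adjusted p = 0.000824, 0.000324 to 0.00380 over 18 alternative fits). It also fell against C185Gneo (-0.48 ± 0.18, adjusted p = 0.0390), a call lost in 7 of 18 alternative fits, including those without C185Gneo library 2, 3 or 4 and without C185G library 1 or 3 (adjusted p up to 0.122). Ighm rested on 34 to 85 counts per library.

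**Figure D1:**
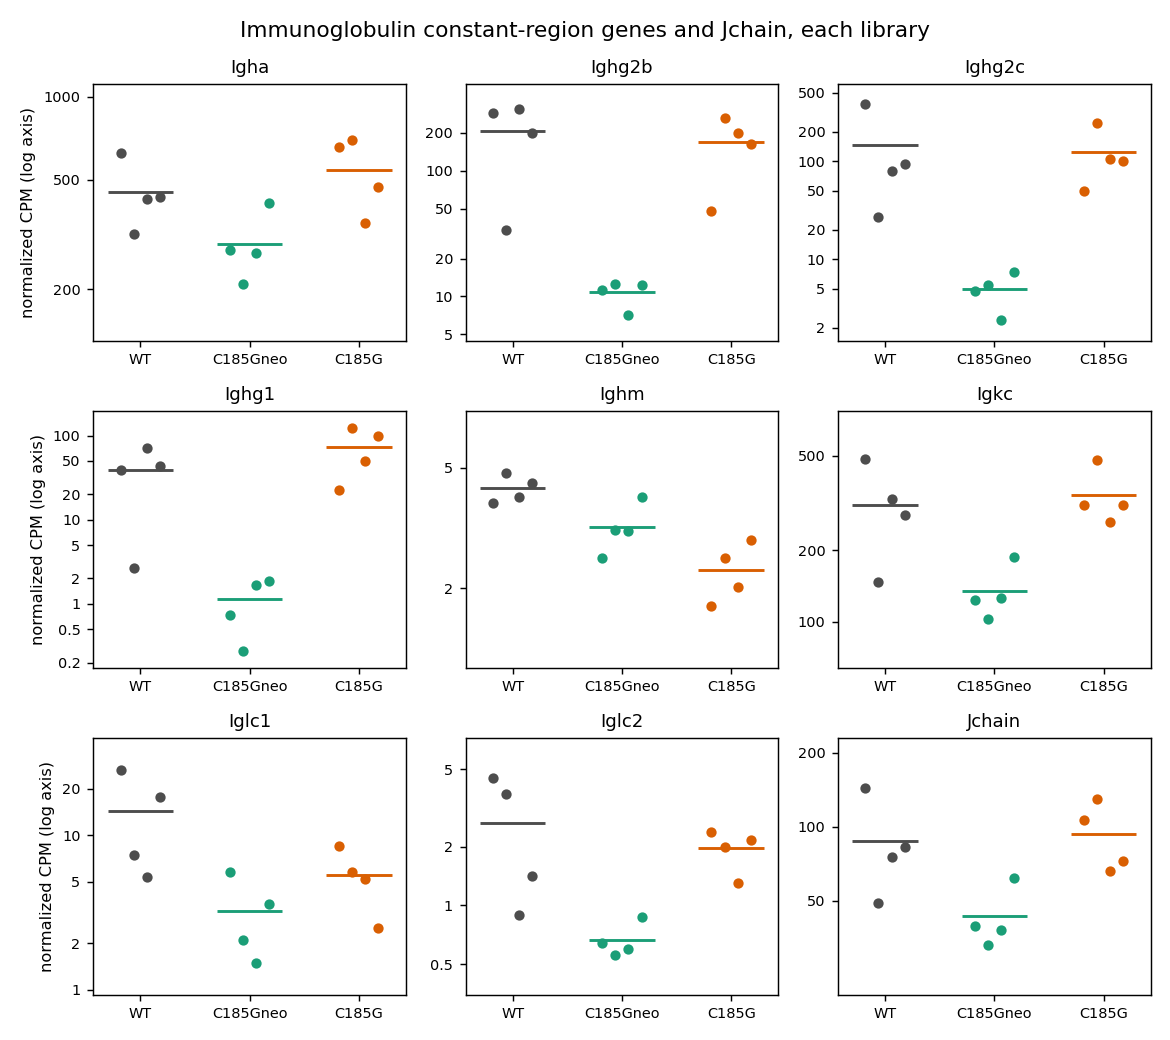
Normalized CPM (log axis) of the 8 measured constant genes and Jchain in each library of WT, C185Gneo and C185G, in replicate order from left to right, with horizontal lines at group means (n = 4). The C185Gneo points of Ighg2b, Ighg2c and Ighg1 lie below all points of the other groups, those of Igha overlap them, and Ighm is lowest in C185G.

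The kappa constant gene had the order of the light chain sums, while both lambda constant genes had their highest mean in WT and their lowest in C185Gneo. Igkc, at chr6:70726435-70726966, was at 483, 147, 329 and 283 CPM in WT, at 124, 103, 127 and 188 in C185Gneo and at 309, 481, 263 and 312 in C185G. All C185G libraries were above all C185Gneo libraries, and WT library 2 lay within the C185Gneo range. Igkc rose in C185G against C185Gneo (log2 change 1.33 ± 0.34, adjusted p = 0.00623, called in all 18 alternative fits) and passed neither test against WT (0.22 for C185G, adjusted p = 0.606, and -1.11 for C185Gneo, adjusted p = 0.279).

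The lambda constant genes were far lower. Iglc2 was at 4.52, 3.73, 0.892 and 1.42 CPM in WT, at 0.641, 0.556, 0.595 and 0.871 in C185Gneo and at 2.37, 2.00, 1.31 and 2.16 in C185G. Its C185Gneo libraries, with 10 to 15 counts, did not overlap the other groups, but the highest (0.871 CPM) lay just below WT library 3 (0.892 CPM). Iglc2 rose in C185G against C185Gneo (log2 change 1.51 ± 0.43, adjusted p = 0.00863). It did not pass the test in C185Gneo against WT (-1.68, adjusted p = 0.141), but did without WT library 3 (0.0318) and with library weights (0.0449). Nor did it pass in C185G against WT (-0.17, adjusted p = 0.756). Iglc1 was at 26.6, 7.47, 5.41 and 17.6 CPM in WT, at 5.82, 2.11, 1.49 and 3.60 in C185Gneo and at 8.55, 5.77, 5.23 and 2.53 in C185G. All groups of Iglc1 overlapped and no comparison passed the test (log2 change -1.21 for C185G against WT, adjusted p = 0.1002 and 0.0387 without WT library 3, 0.82 against C185Gneo, adjusted p = 0.249, and -2.03 for C185Gneo against WT, adjusted p = 0.234).

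Jchain, at chr5:88519809-88527891, was at 143, 48.9, 75.5 and 83.1 CPM in WT, at 39.6, 33.2, 38.2 and 62.0 in C185Gneo and at 107, 129, 65.9 and 72.4 in C185G. Its lowest C185G library was above its highest C185Gneo library, and WT overlapped both. Jchain rose in C185G against C185Gneo (log2 change 1.10 ± 0.33, adjusted p = 0.0154, called in all 18 alternative fits) and did not pass the test in C185G against WT (0.15, adjusted p = 0.732) or C185Gneo against WT (-0.95, adjusted p = 0.373). Counts of Jchain per count of Igha were 0.188 ± 0.0317 in WT, 0.148 ± 0.00833 in C185Gneo and 0.173 ± 0.0174 in C185G. Those of Igkc per count of Igha were 0.665 ± 0.146, 0.466 ± 0.0197 and 0.643 ± 0.122. For Igkc, WT library 2 (0.463) and C185G library 1 (0.469) lay within the C185Gneo range of 0.445 to 0.492. The groups also overlapped in the ratio of Jchain to Igha.

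Levels of different genes were compared per kilobase of exonic sequence. The annotated exonic length was 1326 bases for Ighg2c, but 2678 for Ighg2b, 2592 for Ighg1 and 2668 for Igha. The order of Ighg2c and Ighg2b per kb in WT and C185G therefore depends on the annotation. By mean share of IgG counts, which is not corrected for length, Ighg2b led Ighg2c, with 55.1% and 35.4% in WT and 45.8% and 34.4% in C185G. Ighg2c led instead in WT library 1 (54.2%, beside 40.3% for Ighg2b) and in C185G library 1 (41.4%, beside 39.7%). In WT, Igkc was highest at 584 ± 260.4 CPM per kb, followed by Igha at 169 ± 47.8, Ighg2c at 110.1 ± 122 and Ighg2b at 77.2 ± 46.4. Igha was above Ighg2b in every WT library, while Ighg2c varied too much between libraries to be placed. Jchain (34.9 ± 15.9), Iglc1 (31.4 ± 21.6) and Ighg1 (15.1 ± 10.8) came next, and Iglc2 (4.31 ± 2.87) and Ighm (2.27 ± 0.232) were lowest. Jchain was above Ighg1 in every WT library, while the place of Iglc1 beside them changed between libraries. No test was applied to these orders. In C185Gneo, Igkc (254 ± 69.1) and Igha (109 ± 31.8) again led, Jchain was at 17.2 ± 5.08, and Ighg2b, Ighg2c and Ighg1 were at 4.03 ± 0.933, 3.77 ± 1.55 and 0.437 ± 0.291, so that Ighg1 was below Ighm (1.69 ± 0.325). In C185G the levels were 641 ± 180.0 for Igkc, 204 ± 61.3 for Igha, 94.2 ± 63.5 for Ighg2c, 62.8 ± 33.6 for Ighg2b and 28.3 ± 17.6 for Ighg1, and Ighm was lowest at 1.22 ± 0.271.

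The isotype makeup of the heavy constant counts differed in the same way. IgG genes gave 53.0%, 16.4%, 51.5% and 43.4% of these counts in WT libraries 1 to 4 and 15.3%, 47.4%, 50.3% and 43.3% in C185G. In C185Gneo they gave 5.61%, 7.89%, 3.93% and 4.95%. WT library 2 and C185G library 1 stood apart from the other libraries of their groups but remained above all C185Gneo libraries. The 95% Wilson interval of the lowest of these shares outside C185Gneo was 14.8% to 15.9% (C185G library 1, 2324 of 15148 counts), and that of the highest C185Gneo share was 7.11% to 8.75% (library 2, 327 of 4143 counts). These intervals cover counting error only, since reads from amplified libraries are not independent molecules. IgA made up 58.3 ± 16.6% of the heavy constant counts in WT, 93.4 ± 1.83% in C185Gneo and 60.7 ± 16.1% in C185G, and IgM 0.639 ± 0.421%, 1.05 ± 0.224% and 0.261 ± 0.0692%.

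**Figure D2:**
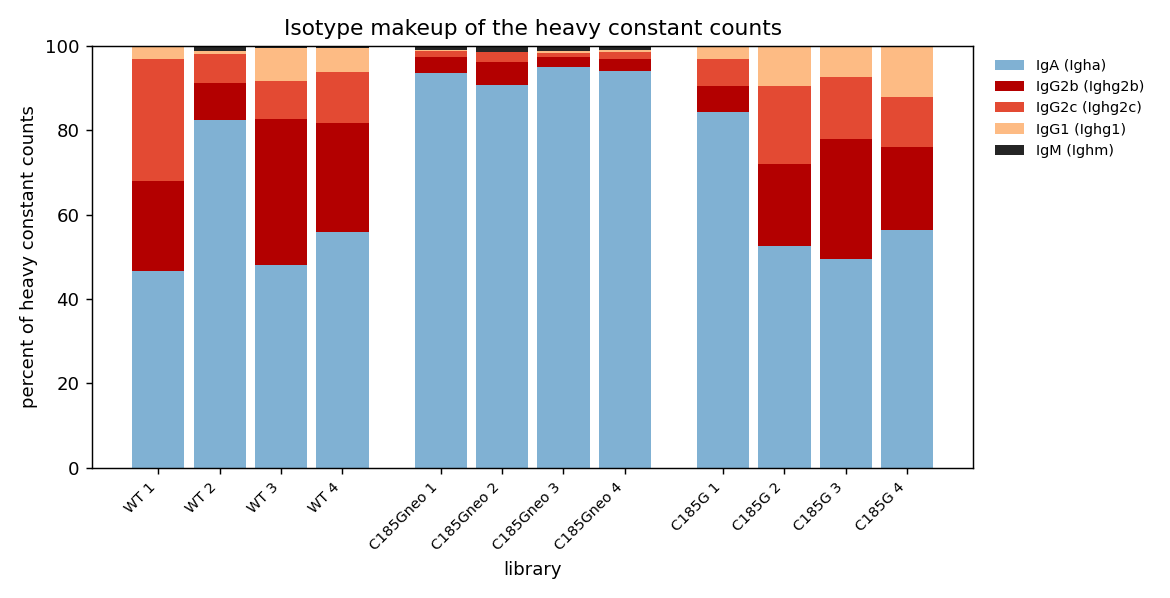
Percent of the heavy constant counts of each library from Igha, Ighg2b, Ighg2c, Ighg1 and Ighm, as stacked bars. IgG genes take 3.93% to 7.89% in the C185Gneo libraries and at least 15.3% in each WT and C185G library.

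Within IgG, Ighg2b held 55.1 ± 11.4% of counts in WT, 64.1 ± 4.99% in C185Gneo and 45.8 ± 7.64% in C185G. Ighg1 held 9.55 ± 5.54%, 7.34 ± 5.81% and 19.9 ± 5.41%. Lambda constant genes made up 5.33 ± 2.34% of light constant counts in WT, 2.85 ± 1.45% in C185Gneo and 2.23 ± 0.895% in C185G, and the highest single share was 7.07% in WT library 2. C185Gneo and C185G did not overlap in the Ighg2b share (57.3% to 68.5% and 39.7% to 56.7%), while all other groups overlapped in these shares.

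In C185G against C185Gneo, 43 of the 120 members were called higher and 1, Ighm, lower. The 35.8% called higher stands beside 29.2% of all genes, and the 0.833% called lower beside 28.7%. By chain, 19 of 62 heavy and 23 of 57 light chain genes were higher, and the median log2 change was 1.67 for heavy and 1.65 for light chain genes, where the median over all genes was 0.00. The fitted change was above 0 for 109 members (90.8%, beside 50.2% of all genes). Groups did not overlap for 35 members (29.2%), a smaller share than the 49.9% of all genes. Of the 44 calls, 26 were lost in no alternative fit that included the gene, and 6 were of members that reached the lowest total of 83 counts only through C185G. The fit of genes with a mean of at least 1 CPM left out low members such as Ighv1-78.

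In C185G against WT, 11 members were called higher and 3 lower, and 106 did not pass the test. These are 9.17% and 2.50% of the members, both below the 27.3% and 27.8% of all genes. The higher calls were 6 heavy and 5 kappa variable genes, the lower ones Ighm, Ighv1-26 and Ighv1-85 (named here to complete the count), and the only constant gene among the 14 was Ighm. The median log2 change was 0.60 for heavy and 0.38 for light chain genes. Of the 14 calls, 8 held in all 18 alternative fits, and 5 of the higher ones were of members that reached 83 counts only through C185G, where they are high. Groups did not overlap for 11 members (9.17%, beside 48.7% of all genes).

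In C185Gneo against WT, 4 members were called, and none of these calls held in all 18 alternative fits. Ighg2b, Ighg2c and Igkv3-10 were lower and Igkv13-84 higher, or 2.50% and 0.833% of the members beside 0.292% and 0.249% of all genes. The median log2 change was -1.15 for heavy and -1.41 for light chain genes, the fitted change was below 0 for all 8 constant genes and for Jchain, and 48 members had an unadjusted p under 0.05 (40%, beside 9.54% of all genes). Groups did not overlap for 24 members (20%, beside 6.87% of all genes). The number called ran from 0 to 7 over the fits that left out 1 library: 7 without WT library 2 and 0 without WT library 1 or 4 or C185Gneo library 1 or 3. Both comparisons against WT share the WT libraries, and both C185G comparisons share the C185G libraries.

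**Figure D3:**
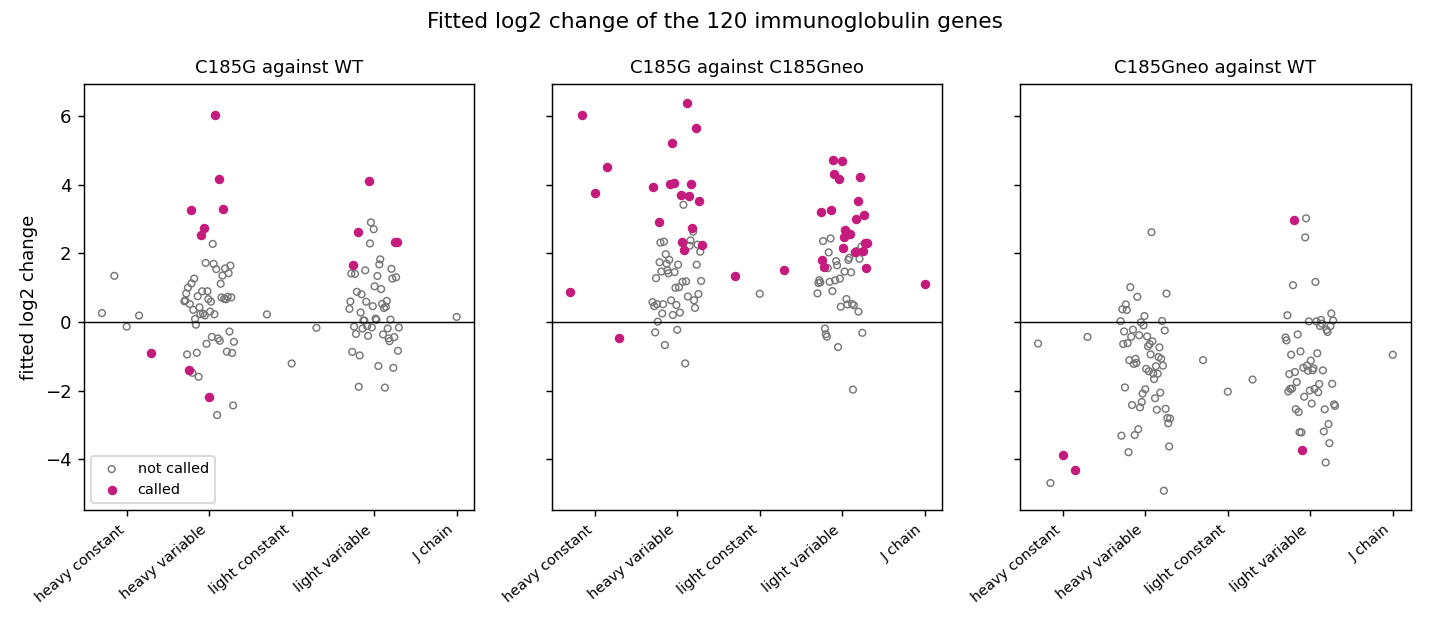
Fitted log2 change of each of the 120 members in the 3 comparisons, by gene class, with filled points for members called at an adjusted p under 0.05 and open points for the others. Filled points above 0 are most numerous in C185G against C185Gneo (43), and most points in C185Gneo against WT are open and below 0.

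The variable genes, which differ between B cell clones, showed large differences between libraries of the same group. The 111 variable genes averaged 0.580 to 25.2 CPM over all libraries. The coefficient of variation within a group had a median of 97.1% in WT, 81.0% in C185Gneo and 68.9% in C185G, where 8701 other genes with mean levels in the same range had medians of 13.8%, 14.3% and 16.4%. The constant genes and Jchain had medians of 60.1%, 29.0% and 31.9%. A variable gene had a median of 29.1% of its summed CPM in its highest library, against 11.6% for the other genes, and 16 of the 111 had over 50% of it in 1 library, which none of the other genes did. Ighv14-4 was the extreme, with 78.5% in C185G library 2. In 20 variable genes at least 1 library had no count.

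The gene with the most heavy variable counts differed from library to library, and 10 different genes led the 12 libraries. Ighv9-3 led in WT library 1 with 13.1% of heavy variable counts (95% Wilson interval 12.3% to 14%), Ighv1-19 in WT library 2, Ighv1-53 in WT library 3 and Ighv1-26 in WT library 4. Ighv1-55 led in C185Gneo library 1, Ighv1-81 in C185Gneo libraries 2 and 4 and in C185G library 1, and Ighv3-6 in C185Gneo library 3. In C185G libraries 2, 3 and 4 the leading genes were Ighv14-4 with 17.0% (16.2% to 17.9%), Ighv1-75 with 8.66% (7.69% to 9.73%) and Ighv6-3 with 8.75% (7.86% to 9.74%).

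The kappa variable counts had 7 different leading genes, and Igkv1-110 alone led more than 1 library. Igkv1-110 led in all 4 C185Gneo libraries, with 21.8%, 18.7%, 12.6% and 12.5% of kappa variable counts, and also in WT library 1 (16.6%) and C185G library 1 (29.7%, interval 28.5% to 31.0%). The other libraries were led by Igkv8-24, Igkv1-117 and Igkv10-96 in WT and by Igkv4-57, Igkv3-4 and Igkv8-21 in C185G. The effective number of variable genes, which falls as fewer genes take the counts, was 16.9 ± 2.35 in WT, 18.1 ± 3.46 in C185Gneo and 21 ± 4.51 in C185G for the heavy chain and 16.2 ± 2.34, 16 ± 1.73 and 18.5 ± 6.76 for kappa. These groups overlapped, and the lowest value of all, 9.23, was that of kappa in C185G library 1.

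**Figure D4:**
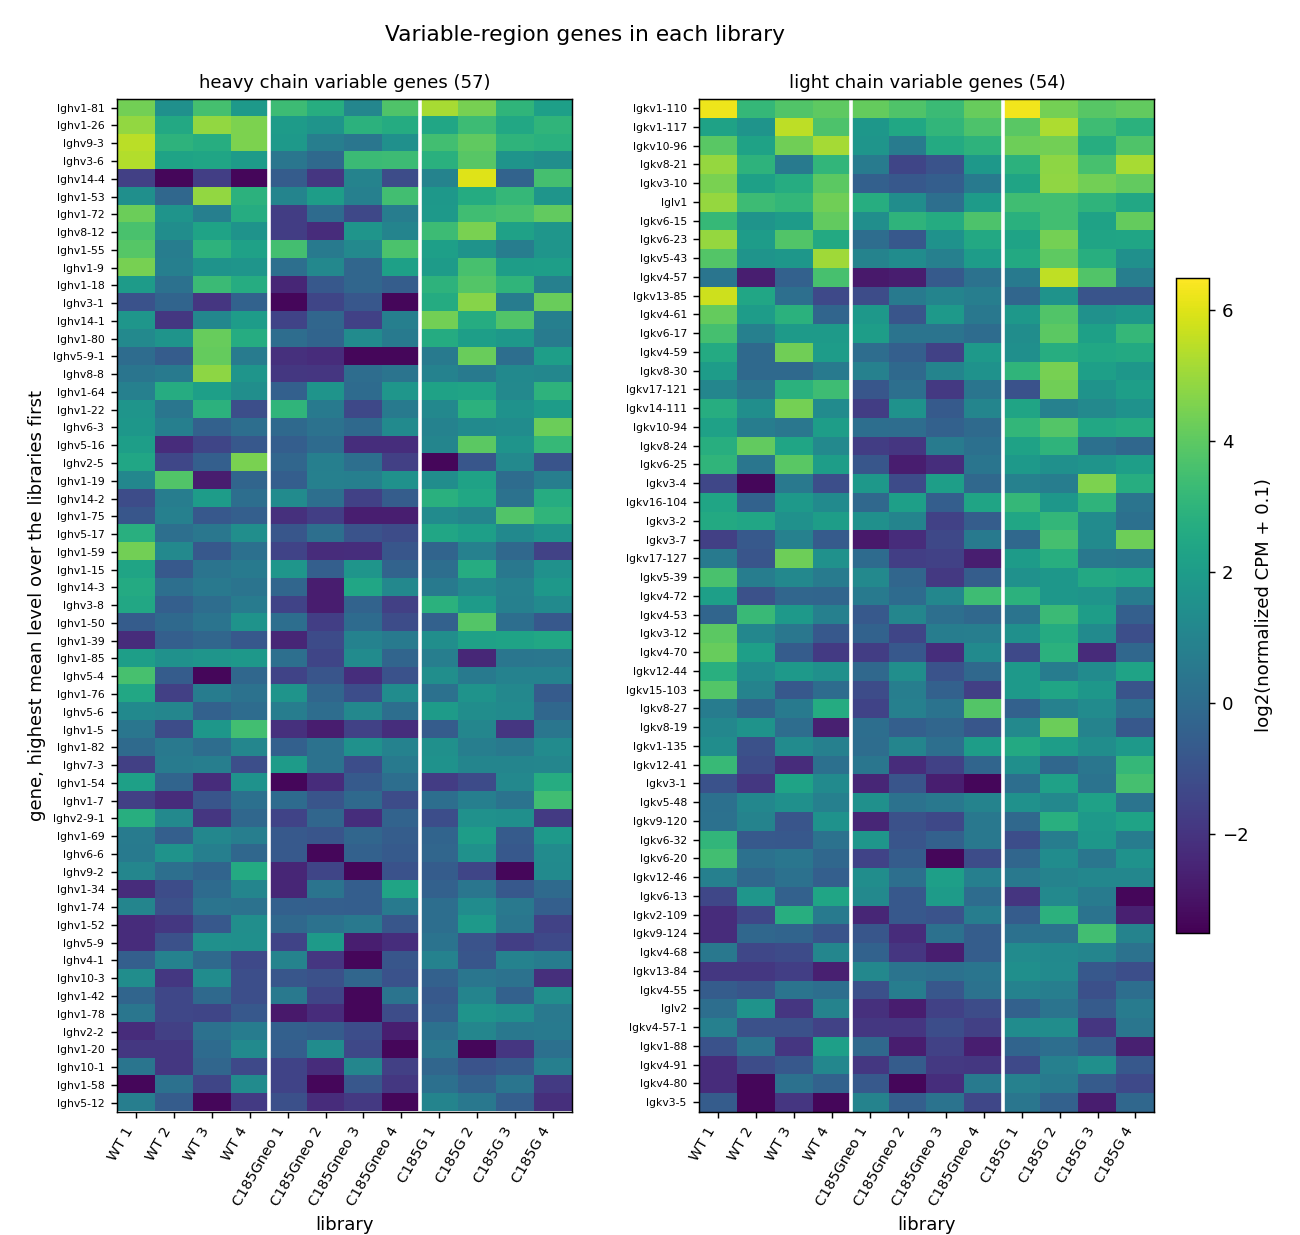
Levels of the 57 heavy and 54 light chain variable genes in each library, as log2(normalized CPM + 0.1), with genes ordered by their mean level and white lines between groups. Single bright cells mark genes high in 1 library, such as Ighv14-4 in C185G library 2 and Igkv1-110 in WT library 1 and C185G library 1, and the C185Gneo columns are darker for most genes.

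By family, 30 of the 57 heavy variable genes belonged to Ighv1 and 7 to Ighv5, and 11 of the 52 kappa variable genes to Igkv4, with 7 each in Igkv3 and Igkv6. Over all 120 members, 92 had their lowest group mean in C185Gneo (47 of 62 heavy and 44 of 57 light chain genes), 18 in WT and 10 in C185G. The highest single library of a variable gene was a WT library for 46 genes, a C185G library for 53 and a C185Gneo library for 12.

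Igkv1-110 was the variable gene with the highest mean level. It was at 74.9, 8.83, 13.5 and 15.96 CPM in WT, at 17.5, 13.2, 9.88 and 17.8 in C185Gneo and at 77.2, 21.3, 14.7 and 17.1 in C185G. WT library 1 and C185G library 1 stood far above the other 10, and no comparison passed the test. Its near copy Igkv1-117 was at 4.75, 3.06, 45.6 and 12.9 CPM in WT, at 3.34, 5.45, 8.27 and 12.8 in C185Gneo and at 15.1, 38.9, 10.4 and 7.39 in C185G. It was highest in WT library 3 and C185G library 2, not in the libraries where Igkv1-110 was, and also passed no test.

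Igkv3-10 was at 22.2, 4.41, 6.35 and 15.6 CPM in WT, at 0.641, 0.50, 0.595 and 1.45 in C185Gneo and at 5.0, 28.6, 20.3 and 17.2 in C185G. Its C185Gneo group lay below both others without overlap. Igkv3-10 rose in C185G against C185Gneo (log2 change 4.31, adjusted p = 0.000162, called in all 18 alternative fits) and fell in C185Gneo against WT (-3.72, adjusted p = 0.0323, lost in 8 of 18, among them each fit without 1 of WT libraries 1, 3 and 4 and C185Gneo libraries 1, 2 and 3). Igkv8-21 was at 29.98, 7.75, 1.39 and 8.32 CPM in WT, at 1.497, 0.278, 0.416 and 3.48 in C185Gneo and at 7.52, 27.5, 11.9 and 36.9 in C185G. All C185G libraries lay above C185Gneo, and Igkv8-21 rose between them (log2 change 4.24, adjusted p = 0.00442, called in all 18 alternative fits).

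Ighv9-3 was at 43.99, 7.81, 6.46 and 22.7 CPM in WT, at 3.59, 1.61, 1.25 and 2.73 in C185Gneo and at 10.9, 16.7, 7.85 and 7.08 in C185G. The C185Gneo libraries were below all others, and Ighv9-3 rose in C185G against C185Gneo (log2 change 2.23, adjusted p = 0.00788, lost with voom weights at 0.0504). Iglv1, 1 of 2 lambda variable genes measured, was at 30.4, 10.01, 8.64 and 20.1 CPM in WT, at 6.5, 2.56, 1.011 and 3.89 in C185Gneo and at 10.8, 11.04, 7.85 and 5.48 in C185G. Iglv1 (log2 change 1.56, adjusted p = 0.0335), its relative Iglv2 (2.29, adjusted p = 0.0194, lost with voom weights and without C185Gneo library 2 or C185G library 4) and Igkv10-96 (1.81, adjusted p = 0.0419) also rose in C185G against C185Gneo. Igkv10-96 was at 15.1, 4.64, 20.2 and 35.1 CPM in WT, at 3.16, 1.5, 5.95 and 7.78 in C185Gneo and at 19.5, 20.4, 6.49 and 13.2 in C185G, with 1 C185G library inside the C185Gneo range. The call of Iglv1 was lost without any 1 of C185Gneo libraries 2 and 3 and C185G libraries 1, 2 and 3 (adjusted p up to 0.0806), and that of Igkv10-96 without any 1 of C185Gneo libraries 1 and 2 and C185G libraries 1, 2 and 4 (up to 0.112).

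Ighv1-26 was at 29.2, 5.71, 29.4 and 23.1 CPM in WT, at 3.89, 3.11, 7.496 and 6.21 in C185Gneo and at 5.25, 10.1, 5.50 and 8.19 in C185G. WT library 2 lay among the mutant libraries and the other 3 above them all. Ighv1-26 fell in C185G against WT (-1.39, adjusted p = 0.0383, lost in 9 of 18 alternative fits, with an adjusted p of 0.0604 to 0.0978 without any 1 of WT libraries 1, 3 and 4 and C185G libraries 1, 3 and 4). The other 4 of the 12 most abundant variable genes passed no test. Ighv1-81 was at 20.4, 2.77, 11.7 and 3.57 CPM in WT, at 10.3, 6.502, 2.02 and 13.3 in C185Gneo and at 36.7, 22, 8.12 and 4.37 in C185G. Ighv3-6 was at 40.3, 4.81, 5.07 and 3.88, at 1.24, 0.834, 9.76 and 10.2 and at 7.16, 14.7, 3.05 and 2.59 CPM. Both overlapped across all groups, and each was raised in 1 or a few libraries of a group. Igkv6-15 was at 9.15, 3.11, 3.90 and 16.9 CPM in WT, at 2.61, 7.84, 6.25 and 12.95 in C185Gneo and at 7.16, 10.9, 4.63 and 17.7 in C185G, and Igkv6-23 at 30.3, 3.96, 13.7 and 5.92, at 0.941, 0.50, 2.91 and 5.69 and at 4.84, 20.95, 5.01 and 5.05. For Igkv6-23 the change in C185G against C185Gneo was 2.06 (adjusted p = 0.0632).

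Some variable genes were higher in every C185G library than in any other library. Ighv1-75 had 8, 30, 9 and 10 counts in WT, 3, 4, 1 and 1 in C185Gneo and 47, 42, 254 and 132 in C185G. The WT and C185Gneo libraries together held 66 counts, under the lowest total of 83, so the gene is in the data only through C185G and its calls are not given as support. Igkv10-94 had 80, 28, 23 and 67 counts in WT, 23, 17, 11 and 15 in C185Gneo and 166, 300, 103 and 100 in C185G. It passes that total without C185G, was higher in every C185G library than elsewhere, and rose against WT (1.67, adjusted p = 0.00372) and C185Gneo (3.19, adjusted p = 2.60e-05), with both calls held in all 18 alternative fits.

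Ighv3-1 had 7, 13, 3 and 11 counts in WT, 0, 5, 8 and 0 in C185Gneo and 120, 556, 28 and 297 in C185G. No other library reached the lowest C185G library, and the 47 counts outside C185G are also under 83. Ighv14-4 had 4, 0, 4 and 0 counts in WT, 13, 3, 31 and 6 in C185Gneo and 36, 1371, 13 and 187 in C185G. Named after its values were seen, it had 61 counts outside C185G, and 1 library held most of its counts. For these reasons no test of Ighv3-1 or Ighv14-4 is given. Igkv13-84 had 3, 3, 4 and 1 counts in WT, 50, 21, 18 and 21 in C185Gneo and 52, 50, 9 and 6 in C185G. It rose in C185G against WT (adjusted p = 0.00193) and in C185Gneo against WT (adjusted p = 0.0440), and the latter call was lost in every fit that left out 1 library (adjusted p 0.0746 to 0.143). WT held only 11 of its counts, so Igkv13-84 is in the data through the mutant groups and neither call is given as support. Of its windows, 48.3% also occurred in Igkv13-85.

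The other variable genes with the smallest p-values were low in C185Gneo and were called in C185G against C185Gneo. Ighv5-9-1 had 16, 10, 316 and 24 counts in WT, 3, 2, 0 and 0 in C185Gneo and 28, 392, 18 and 68 in C185G (adjusted p = 0.00190). Ighv1-78 had 22, 5, 5 and 8 counts in WT, 1, 2, 0 and 6 in C185Gneo and 12, 67, 49 and 22 in C185G, and its 49 counts outside C185G are under 83, so its call is not given as support. In both genes the C185Gneo libraries held at most 6 counts, so their fitted changes are left out. Ighv5-17 had 121, 18, 23 and 43 counts in WT, 11, 18, 7 and 6 in C185Gneo and 103, 92, 42 and 50 in C185G, and Ighv3-8 had 98, 11, 17 and 24, then 6, 1, 12 and 4, then 143, 84, 31 and 38. Ighv1-72 had 330, 55, 30 and 104 counts in WT, 5, 16, 5 and 27 in C185Gneo and 69, 227, 217 and 279 in C185G, and Igkv6-25 had 141, 22, 274 and 66, then 11, 1, 2 and 21, then 72, 59, 57 and 68. The highest WT library of these 4 genes was library 1 or library 3, and all their C185G libraries were above C185Gneo. Ighv5-17 rose in C185G against C185Gneo by a log2 change of 2.73 (adjusted p = 0.000883), Ighv3-8 by 3.67 (adjusted p = 0.00150), Ighv1-72 by 4.02 (adjusted p = 0.00181) and Igkv6-25 by 3.53 (adjusted p = 0.00534), all 4 in all 18 alternative fits. None of these 6 genes passed the test of the main fit in C185G against WT. Without WT library 1, Ighv5-17 (adjusted p = 0.0262) and Ighv3-8 (adjusted p = 0.0499) rose there. Ighv1-78 was called in some alternative fits, which are not given as support either. Of the windows of Ighv1-72, only 7.49% were found in no other gene, and 68.3% also occurred in Ighv1-62-3.

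Genes that mark the cells of origin were read beside the members. All 14 genes of the plasma cell list were measured. Of these, 2 rose and 3 fell in C185G against WT, where 27.3% and 27.8% of all genes did. Against C185Gneo, 4 rose and 4 fell in C185G, where 29.2% and 28.7% of all genes did. These counts were not above the shares of all genes. None was called in C185Gneo against WT. Mzb1, a chaperone of antibody assembly, was at 9.30 ± 2.47 CPM in WT, at 6.69 ± 1.13 in C185Gneo and at 7.61 ± 3.35 in C185G and passed no test. Pou2af1, a coactivator of antibody gene transcription, was at 6.14 ± 1.62, 3.92 ± 0.570 and 7.04 ± 2.57 CPM and rose in C185G against C185Gneo (log2 change 0.78, adjusted p = 0.0170, lost without C185G library 2 at 0.0538). Tnfrsf17, the plasma cell survival receptor, was at 0.764 ± 0.0262, 0.772 ± 0.222 and 0.861 ± 0.446 CPM, and it, Tnfrsf13b, Irf4 and Slamf7 passed no test in any comparison.

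The plasma cell genes that fell in C185G against WT were Fkbp11 (log2 change -0.86), a secretory pathway gene, Xbp1 (-0.30), a regulator of secretory capacity, and Sdc1 (-0.23), a surface proteoglycan, and epithelial cells transcribe Xbp1 and Sdc1 too. Prdm1, the transcription factor that drives plasma cell formation, rose (0.51, adjusted p = 0.00135), as did Ssr4 (0.44, adjusted p = 2.42e-05), a subunit of the protein translocation machinery. The summed level of the list was 1179 ± 43.7 CPM in WT, then 1189 ± 33.3 in C185Gneo and 1060 ± 24.8 in C185G. Mzb1, Pou2af1 and Tnfrsf17 made up only a small part of this sum, so it mostly reads other genes of the list and is no measure of plasma cells. Whether plasma cell number moved with the immunoglobulin levels was not tested.

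Of the 19 genes of the B cell list, 9 were measured, and the rest, among them Ms4a1, Cd22 and Pax5, were not analysed here. In C185G, 6 of the 9 fell against WT and 5 against C185Gneo, beside 27.8% and 28.7% of all genes. None was called in C185Gneo against WT. Cd79a, a signalling chain of the B cell receptor, was at 3.66 ± 0.886, 2.79 ± 0.546 and 3.66 ± 0.927 CPM in WT, C185Gneo and C185G and passed no test, while its partner Cd79b fell in C185G against WT (log2 change -0.47, adjusted p = 0.00563). The transcription factor gene Spib (-1.61) and the surface protein gene Cd72 (-1.18) fell most. The list summed to 51 to 63.7 CPM in WT, to 46.5 to 57.3 in C185Gneo and to 36.1 to 44.4 in C185G. Blnk alone was at 19.4 ± 1.64 CPM in WT, far above Cd79a. Whether B cell number differed between groups was not tested.

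Of the 11 genes that bind or carry immunoglobulin 7 were measured, and 3 of these, Pigr, Fcgrt and Fcamr, fell in C185G against WT. Among all genes, 27.8% fell in that comparison. Pigr was at 779, 373, 679 and 485 CPM in WT, at 207, 259, 228 and 237 in C185Gneo and at 165, 257, 251 and 192 in C185G, or means of 579 ± 184, 233 ± 21.4 and 216 ± 44.8. Neither mutant group overlapped WT, and Pigr fell in C185G against WT (log2 change -1.39, adjusted p = 0.000263, called in all 18 alternative fits) and in C185Gneo against WT (-1.26, adjusted p = 0.0337). The latter call was lost in 9 of 18 fits (adjusted p up to 0.115), among them every fit that left out 1 library other than WT library 2. Fcgrt fell in C185G against WT (-1.06, adjusted p = 2.08e-07) and was at 43.9 ± 3.12 CPM in C185Gneo beside 42.2 ± 1.64 in WT. Fcamr, a receptor of IgA and IgM, fell in C185G against WT (-0.28, adjusted p = 0.0237, lost with library totals as scaling at 0.0980 and without WT library 1 or 4 or C185G library 4), and Fcer2a, a receptor of IgE, rose in C185G against C185Gneo (0.95, adjusted p = 0.0101).

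**Figure D5:**
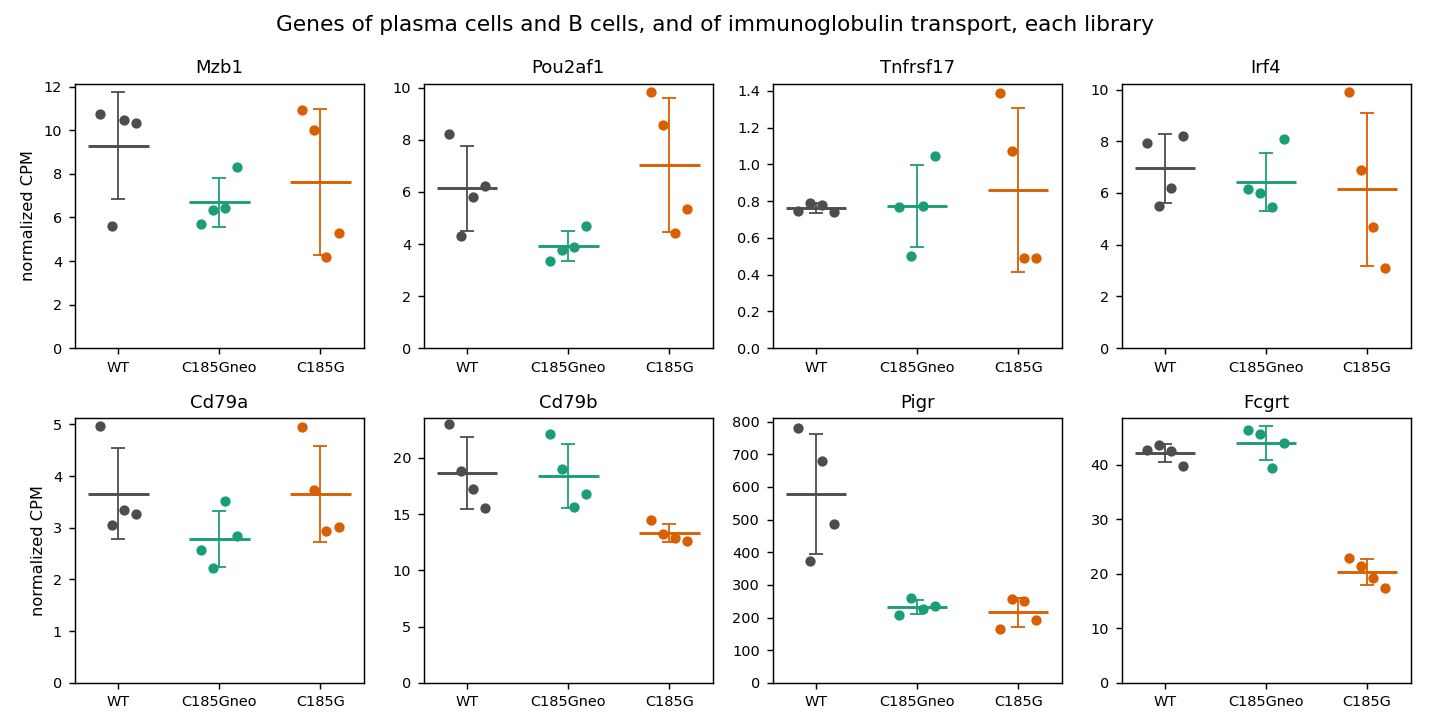
Normalized CPM of 4 plasma cell genes (Mzb1, Pou2af1, Tnfrsf17, Irf4), the B cell receptor genes Cd79a and Cd79b, and the immunoglobulin receptor genes Pigr and Fcgrt, in each library in replicate order, with group means and SD (n = 4). Mzb1, Tnfrsf17 and Irf4 overlap between all groups, Pigr is high in WT alone, and Fcgrt is low in C185G alone.

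Signals that supply B cells were measured in 8 of 10 genes. Tnfsf13, which encodes the plasma cell survival factor APRIL, was at 13.4 ± 0.472 CPM in WT, at 9.15 ± 0.560 in C185Gneo and at 3.20 ± 0.877 in C185G and fell in C185G against WT (log2 change -2.10, adjusted p = 1.55e-07). Il7, a lymphocyte growth factor, rose (0.64, adjusted p = 0.0120), and the other 6 were not called against WT. Il6 and Ccl20 passed no test in any comparison. Vpreb3, a gene of the surrogate light chain family, had 276 to 759 counts per library and fell in C185G against WT (-0.87, adjusted p = 0.000290). Of the V(D)J recombination and class switching list only Ung was measured, with 32 to 61 counts per WT library and 25 to 54 per C185G library, and it fell (-0.68, adjusted p = 0.0193).

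Of the marker lists, only the mesenchymal, the macrophage and neutrophil, and the dendritic cell sums had the order of the heavy and light chain means. That order was highest in C185G and lowest in C185Gneo. Its step from WT to C185G turned around without WT library 2 or C185G library 2, and the IgG and lambda sums were highest in WT. The T cell sum also had its lowest mean in C185Gneo (25.4 CPM, beside 27.4 in WT and 25.6 in C185G). The 6 mesenchymal genes summed to 354 to 554 CPM in WT, to 138 to 391 in C185Gneo and to 411 to 641 in C185G. In C185G against C185Gneo 5 of them rose, where 29.2% of all genes did. The 9 measured macrophage and neutrophil genes summed to 179 to 218, 136 to 177 and 223 to 279 CPM, with 6 higher in C185G than in C185Gneo. The 8 pan-leukocyte genes had another order, at 426 to 541, 414 to 479 and 269 to 305 CPM. The part of these cells in the immunoglobulin differences was not tested. Ighmbp2, the helicase gene kept apart, was at 321 counts or fewer in each WT and C185Gneo library and rose in C185G against WT by a log2 change of 0.33 (adjusted p = 0.0186).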

How the data were processed

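Whole counts were recovered from the deposited values: as their spacing shows, the authors deposited the log2 of each count plus 0.5, scaled by a factor of its library, and 100% of counts came out whole within 1e-06. STAR, limma and mm10 appear without versions in the submitters' processing notes, and the counting tool, annotation and strand setting are unknown here, so antisense and overlapping genes cannot be separated. CPM are the recovered counts times the deposited factor, divided by the mean scaled library total.

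Identifiers were matched to GENCODE release 21 (16017 of 16080 genes had a symbol there), and sequences and lengths come from its transcripts. The deposited log2 values of all 16080 genes and 12 libraries were fitted with limma 3.58.1 (1 coefficient per genotype, eBayes with trend and robust, R 4.3.3), Benjamini-Hochberg adjusted over all genes and called under 0.05; fold changes are on this log2 scale, with 0.5 added to counts, which understates changes of low genes. The code was tested on simulated data first. Other values were computed in Python 3.11.15 with pandas 2.3.3 and scipy 1.17.1.

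Named with values are all constant genes, Jchain, the 12 most abundant variable genes and 10 more called genes with the smallest p. Genes that led a library's variable counts, Ighv14-4, Ighv1-85 and Iglv2 were added after their values were seen. Marker lists give up to 4 genes each, and the B cell and plasma cell lists any gene. Members and all 16 lists were chosen with earlier results of these data known. Alternatives were quantile or library-total scaling, 2 added to counts, a mean of at least 1 CPM, no trend, eBayes without robust, voom or library weights, each library left out, a fit of only the 8 libraries compared and a replicate block.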

Additional observations from a re-analysis of the deposited data

Results flagged for a closer look

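In 11 of 141 groups of 4 libraries, the gap between an extreme library and its nearest neighbour took up most of the group's range by Dixon's 95% criterion. Its rate of about 1 in 20 groups by chance holds for independent, normally distributed values. The values here are CPM that were not log-transformed, and some are sums that contain others, so 11 of 141 cannot be read against that rate. Igkv1-110 was at 74.9 CPM in WT library 1 (the other WT libraries at 8.83 to 15.96) and at 77.2 CPM in C185G library 1 (others 14.7 to 21.3). Igkv3-10 was at 1.45 CPM in C185Gneo library 4 (others 0.50 to 0.641). Ighv3-6 was at 40.3 CPM in WT library 1 (others 3.88 to 5.07), and Ighv5-9-1 at 17.6 CPM in WT library 3 (others 0.566 to 1.48). Igkv6-23 was at 20.95 CPM in C185G library 2 (others 4.84 to 5.05). Ighv1-75 was at 1.70 CPM in WT library 2 (others 0.458 to 0.616), and Igkv13-84 at 2.14 CPM in C185Gneo library 1 (others 1.07 to 1.22).

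Sums over kappa genes met the same criterion. All kappa chain genes together were at 957 CPM in C185G library 2 (others 493 to 569). The kappa variable genes were at 476 CPM in that library (others 229.5 to 259.6) and at 142 CPM in C185Gneo library 4 (others 70.7 to 80.6). In each case the extreme library was the highest of its group.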

How the results depend on the processing

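The C185Gneo comparison with WT was the least stable. Its 87 called genes became 54 without the mean-variance trend, 162 with library weights and 40 to 81 with 1 library left out. Its 4 called members became 2 without the trend, with 2 added to counts, with only the 8 libraries compared or with the replicate number as a block, 0 with voom weights, 7 with eBayes without robust, and 0 to 7 with 1 library left out. The heavy chain ratio of C185Gneo over WT moved from 0.368 to 0.160 without Igha, and its ratio of C185G over WT turned from 1.09 to 0.999. With 1 library left out, the C185G over WT ratios ran from 0.914 to 1.35 for heavy and from 0.903 to 1.35 for light chains, below 1 without WT library 2 (0.9198 and 0.915) or C185G library 2. The IgG ratio of C185Gneo over WT stayed between 0.0337 and 0.0592, an alternative chosen after seeing the data.

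With 1 library left out, C185G against WT gave 12 to 19 called members and C185G against C185Gneo 33 to 42. With library totals as scaling, members called higher and lower were 12 and 3 in C185G against WT, 45 and 0 in C185G against C185Gneo, and 1 and 3 in C185Gneo against WT. Same-numbered libraries correlated between -0.126 and 0.182 in their deviations from group means, which neither shows nor excludes a pairing. Between C185Gneo and WT, the best match of C185Gneo libraries 1, 2 and 4 had the same number. Between C185G and C185Gneo this held for library 1 only, and between C185G and WT for none. The replicate block called Iglc1 lower in C185G against WT (adjusted p = 0.0303) and gave 17 called members (8670 genes) in C185G against WT, 48 (9112) in C185G against C185Gneo and 2 (63) in C185Gneo against WT. Over 93 comparisons of named members, 30 of 1671 recomputed values had the other sign (in 15 comparisons, none of these values called in either fit), and 10 of 32 calls were lost at least once. The cause of these changes was not tested. Depth limits members at a few counts per library.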

Other observations

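Other immune lists moved in several directions. Among all genes, 27.3% rose and 27.8% fell in C185G against WT, and 28.7% fell in C185G against C185Gneo. In C185Gneo against WT 0.292% fell. All 270 annotated T cell receptor genes, all 9 NK cell genes and all 5 erythrocyte genes were outside the genes analysed here. Of 10 measured T cell genes, 2 fell in C185G against WT, and the list summed to 26.2 to 28.5 CPM in WT and to 22.5 to 28.95 in C185G. Among the 9 measured MHC class II genes, 8 fell in both C185G comparisons, with medians of the log2 change of -1.69 against WT and -1.91 against C185Gneo, and this list includes Cd74, the invariant chain. Of 9 macrophage and neutrophil genes, 5 rose in C185G against WT, and 1 fell in C185Gneo against WT. In the dendritic cell list, 5 of 8 genes were measured, with 1 higher and 1 lower in C185G than in WT.

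Non-immune lists also differed. All 11 AEC2 genes fell in C185G against WT, with summed levels of 36999 to 43663 CPM in WT and 14036 to 17331 in C185G. Of 6 endothelial genes 4 fell, beside 27.8% of all genes, and of 6 mesenchymal genes none was called in C185G against WT.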
